A study of Mus musculus with 30 samples.

Results

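The genes described here move or store zinc, iron, copper and magnesium. They were chosen by symbol: the carrier families Slc11, Slc30, Slc31, Slc39, Slc40 and Slc41, the metallothioneins Mt1 to Mt4, and the iron genes Tfrc, Hmox1, Fth1, Hamp and Cp. This gave 41 of the 17782 genes that had at least 1 probe set of their own, measured by 76 probe sets, and each gene is represented by its brightest probe set in the tissue. Trf and Ftl1, also named by that rule, were measured here only by probe sets shared with Srprb and with Ftl1-ps2, so no value is given for them. Both tissues, muscle and kidney, came from the same 15 mice, 6 weeks old, and each sample had its own array. Mice of the wild type were compared with Kif3aΔTub mice, whose genotype label, Kif3aKSPCre, names the Ksp-Cre driver of kidney tubule epithelium, so any change in muscle arose in a tissue that the driver is not designed to target. Within each genotype some animals were given PBS and others sActRIIB-Fc, the ligand-binding part of the activin type IIB receptor joined to an antibody Fc part and called the trap below, at 10 mg/kg by weekly intraperitoneal injection, 2 times. Each tissue had 3 wild-type animals on PBS (untreated below) and 4 animals in each of the other groups.

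Cells hold free zinc and iron low. Slc39 carriers (the ZIP family) bring zinc, and some also iron and manganese, into the cytosol. Most Slc30 carriers (the ZnT family) move zinc out of the cytosol, across the plasma membrane or into vesicles. Metallothioneins are small cysteine-rich proteins that bind zinc and copper, and their genes respond to zinc through the factor Mtf1, which binds metal response elements, and to glucocorticoids. Iron bound to transferrin enters through the receptor Tfrc, leaves endosomes through Slc11a2, is stored in ferritin and leaves the cell through Slc40a1 (ferroportin), while the ferroxidase Cp helps load it back onto transferrin. Tfrc mRNA is stabilised when iron in the cytosol is low. The kidney tubule takes filtered metals back from the urine, and muscle holds much of the body's zinc.

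Signal levels are log2 intensities. Differences are on the same log2 scale, each with its standard error in the limma fit, and p-values adjusted over all 17782 genes of a tissue. A gene is called changed at an adjusted p under 0.05. Array medians lay between 5.94 and 6.24, arrays of a group correlated at 0.977 or more over genes, and fast-fibre genes in muscle (11.1 to 14.4) and proximal tubule genes in kidney (7.29 to 13.6) matched the tissue labels. Kif3a in kidney averaged 7.33 in untreated mutants against 7.83 in untreated wild type, but 7.63 against 7.65 under the trap, so in treated kidneys it did not check the labels. For a sense of background, the fast-fibre genes had a median level of 4.30 in kidney, and 4 of the 41 metal genes lay at or under it. In muscle 8 lay at or under 5.0, the median there of the proximal tubule genes. Untreated mutant muscle differed from untreated wild-type muscle in 2 measures of RNA handling: the actin 3 prime minus 5 prime signal was -0.06 to 0.14 against 0.16 to 0.18, and the 18S control was 11.2 to 12.1 against 12.0 to 12.4. In kidney the former was 0.761 to 1.37 against 1.4 to 1.5, and the 18S control was lower in treated than in untreated kidneys of both genotypes, without overlap (10.3 to 11.3 against 11.8 to 12.6 in mutants, 10.95 to 11.56 against 11.87 to 12.04 in wild type).

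The stretches below carry the letters of the metal response element next to Mt1 and Mt2, the only metal genes that were called higher in the mutants of both tissues. The letters searched were the core TGCACNC or TGCGCNC, on both strands, and matches are in capitals. The sequences and positions are those of RefSeq on build GRCm38.p6, both on the plus strand. For Mt2 the 250 bases before the transcript start are shown (chr8:94172368-94172617), and for Mt1 there are 30 bases just before the start (chr8:94179059-94179088) and the next 30 bases (chr8:94179089-94179118). The Mt1 start used there lies 206 bases inside the gene's annotated span.
Mt2, upstream: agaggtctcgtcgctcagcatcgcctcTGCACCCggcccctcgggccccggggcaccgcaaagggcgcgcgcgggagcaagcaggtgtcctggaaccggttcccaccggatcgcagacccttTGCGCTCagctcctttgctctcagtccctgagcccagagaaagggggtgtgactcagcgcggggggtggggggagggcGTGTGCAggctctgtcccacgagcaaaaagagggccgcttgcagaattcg
Mt1, before the start: cccgctgTGCACACtggcgctccagggagc
Mt1, after the start: tcTGCACTCcgcccgaaaagTGCGCTCggc
In the windows from 250 bases before to 50 bases after the starts, Mt2 held 4 matches, 3 of them in the stretch shown, and Mt1 held 3. Slc30a4 and Slc30a10 also held 3 each, and neither was called higher in mutants of either tissue. Among all 32851 mouse windows 25.7% held at least 1 match and 1.97% held 3 or more. Of the metal genes, 34 had 42 windows in the table, and 21 of the windows (50%) held at least 1. The antioxidant response core TGACNNNGC, searched the same way, was in 12.4% of all windows and in 9 of the 42 (21.4%). A match is only a match of letters.

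In untreated mutant kidneys, 13 of the 41 metal genes were called higher and 17 lower than in wild type, with 11 not called (73.2%, against 51.6% of all genes, 24.9% higher and 26.7% lower). The median difference was -0.14, against -0.08 for all genes, and 29 of the 30 called genes had no overlap of mutant and wild-type arrays. Over all genes 49.4% were called and did not overlap, which is 95.8% of those called, so the lack of overlap among called metal genes was like that of called genes in general. In untreated mutant muscle 2 were called higher and 6 lower (19.5%, against 16.0% of all genes, 6.93% higher and 9.04% lower), with a median of -0.12 against -0.05, a share near that of all genes. Markers of other cells moved in the same muscles: 12 of 13 fibroblast and matrix genes were lower (median -2.32, mean levels 7.97 to 9.14 against 10.5 to 10.7 in untreated wild type), and 8 of the 13 were called higher by the trap in mutants (9.51 to 9.96). Of 9 slow-fibre genes 4 were higher and 1 was lower, and no fast-fibre gene was called. Their part in the muscle results below was not tested. In both tissues the metal genes moved in each direction. A total of 9 genes changed at least 2-fold in kidney: Cp, Mt2, Slc11a1, Slc39a6 and Mt1 were higher, and Slc30a2, Slc39a5, Tfrc and Slc39a8 were lower. In muscle 4 did, with Mt1 and Mt2 higher and Slc30a2 and Slc41a3 lower. How many of all genes changed at least 2-fold was not counted, so neither count sets the metal genes apart. These are whole tissues, in which fewer cells of a type and less RNA per cell cannot be told apart.

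**Figure D1:**
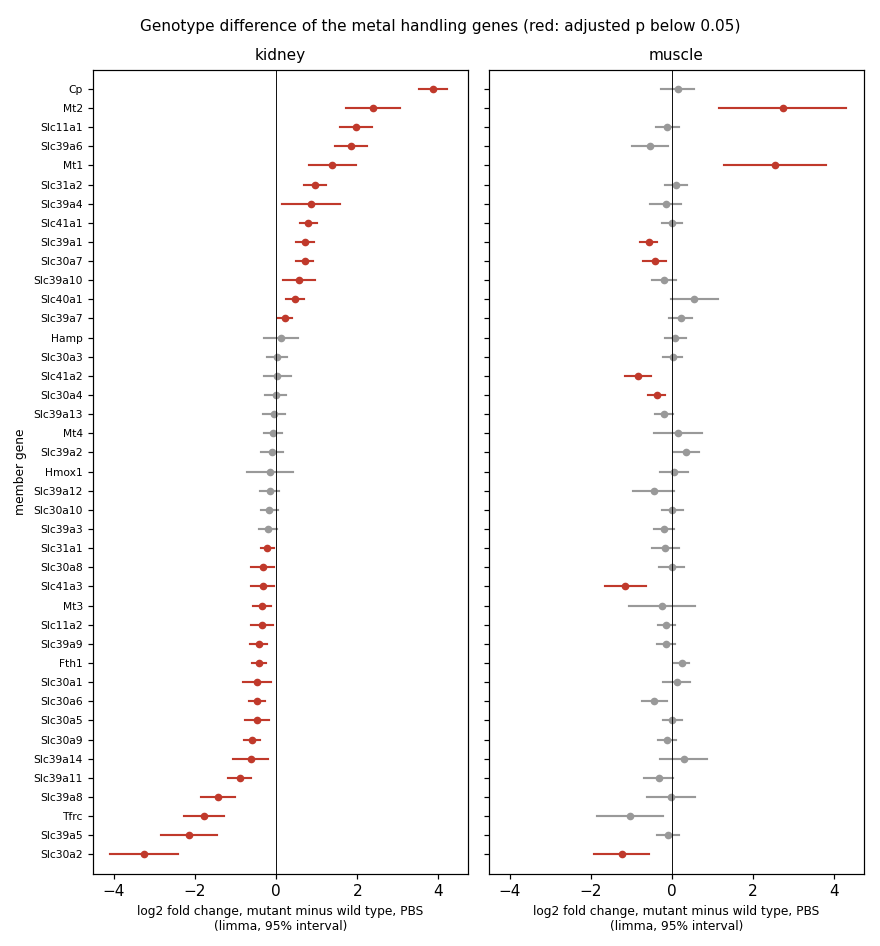
Each point is the log2 fold change of untreated mutants over untreated wild type for 1 metal gene, with its 95% interval from limma (4 against 3 animals), in kidney and muscle on the same scale; red marks an adjusted p below 0.05. Kidney runs from 3.87 for Cp to -3.25 for Slc30a2, while in muscle only Mt1 (2.54) and Mt2 (2.73) were called higher.

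Among the metallothioneins, Mt1 and Mt2, the forms made in nearly every tissue, rose in mutants of both tissues, while Mt3 and Mt4, known chiefly from brain and from stratified epithelia, did not. In muscle, Mt1 stood at 9.04, 9.90 and 9.27 in untreated wild type and at 13.09, 10.47, 12.26 and 11.93 in untreated mutants. The groups did not overlap, and the mutants spread over a wider range. The difference was 2.54 ± 0.60 (5.80-fold, 95% interval 1.27 to 3.80, n = 4 and 3, adjusted p = 0.00890). Mt2 in muscle was at 8.30, 9.68 and 9.02 in wild type and at 12.98, 9.56, 12.39 and 11.99 in mutants, so 1 mutant, the same one that was lowest for Mt1, lay inside the wild-type range. Its difference was 2.73 ± 0.74 (6.64-fold, adjusted p = 0.0195). A further Mt1 probe set gave 1.4. With the 18S control as a covariate neither was called (Mt1 2.39, adjusted p = 0.0661; Mt2 2.32, adjusted p = 0.143). Mt2 also lost its call without untreated mutant replicate 1 (2.32, adjusted p = 0.0599) or replicate 3 (2.51, 0.0519), and without untreated wild-type replicate 1 (2.38, 0.0822) or replicate 3 (2.74, 0.0538), whereas Mt1 kept its call without each of the 15 muscle arrays in turn (2.15 to 3.02).

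Genes that glucocorticoids induce moved along with them in muscle: 15 of 20 were called higher and none lower in untreated mutants (75%, against 16.0% of all genes). The median difference was 1.53 (all genes -0.05). That list itself holds Mt1, Mt2 and Lcn2, whose rise is given below. The mean level of the list was 8.62 to 9.00 on the wild-type arrays and 9.74 to 11.2 on the mutant arrays. In kidney 11 of the 20 were higher and 1 was lower (8.38 to 8.81 against 9.84 to 10.1). That is 60%, near the 51.6% of all genes called there. The part of the glucocorticoid-induced genes in the metallothionein result was not tested.

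In kidney the untreated wild-type values were tight, at 11.16, 11.04 and 11.21 for Mt1, and the untreated mutants were at 13.20, 12.01, 12.40 and 12.47. All mutant arrays lay above all wild-type arrays, by 1.38 ± 0.27 on average (2.61-fold, n = 4 and 3, adjusted p = 0.000579), or 0.89 when all probe sets of Mt1 were averaged. Mt2 in kidney went from 10.28, 10.23 and 10.33 to 13.19, 12.00, 12.73 and 12.73, a difference of 2.38 ± 0.32 (5.22-fold, adjusted p = 1.43e-05). The genotype difference did not itself differ between kidney and muscle for Mt1 (-1.15 ± 0.68, adjusted p = 0.195) or Mt2 (-0.35 ± 0.84, adjusted p = 0.783), with standard errors that leave room for sizeable differences. Mt3 in kidney was called lower, but by only 0.34 (-0.34 ± 0.11, adjusted p = 0.0144) and was not called with the actin covariate (-0.31, adjusted p = 0.0588) or without untreated wild-type replicate 2 (-0.31, 0.0578). Mt4 was not called in either tissue and averaged near the background reference.

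Under the trap the genotype difference was called for Mt2 in kidney and for neither gene in muscle. In treated wild-type muscle Mt1 was at 10.57, 8.91, 10.74 and 11.78 and Mt2 at 11.17, 8.88, 11.46 and 12.16, with the other 3 above the untreated range for both genes and replicate 2 below it for Mt1 and inside it for Mt2. Treated mutant muscle was at 11.72, 10.56, 10.18 and 10.67 for Mt1, all above untreated wild type and overlapping the untreated mutants. Neither treatment difference was called: in wild type Mt1 differed by 1.10 ± 0.60 (adjusted p = 0.488) and Mt2 by 1.92 ± 0.74 (0.349), and in mutants Mt1 by -1.16 ± 0.55 (0.236) and Mt2 by -1.12 ± 0.68 (0.381). These comparisons share animals with the genotype comparison and are set side by side only. In treated wild-type kidney Mt1 was at 11.42, 12.81, 12.23 and 12.48, all above the untreated wild-type arrays, yet 1.10 ± 0.27 was not called (adjusted p = 0.0811), and Mt2 likewise (1.13 ± 0.32, adjusted p = 0.117). The lower 18S control of the treated wild-type kidneys went with these values, and its part was not tested. Treated mutant kidneys were at 12.36, 12.27, 12.26 and 12.43 for Mt1, within the range of treated wild type, and the genotype difference under the trap was 0.09 for Mt1 (adjusted p = 0.790) and 0.89 ± 0.29 for Mt2 (adjusted p = 0.021), where the arrays overlapped and the call was lost without treated wild-type replicate 1 (0.57, adjusted p = 0.0659) or treated mutant replicate 4 (0.75, 0.0686). It was also lost with the actin covariate (0.64, 0.138) and the 18S covariate (0.52, 0.255). The interaction of genotype and trap was negative but not called for either gene in kidney (Mt1 -1.29 ± 0.37, adjusted p = 0.106; Mt2 -1.49 ± 0.43, adjusted p = 0.107) or in muscle (Mt1 -2.25 ± 0.81, 0.233; Mt2 -3.04 ± 1.01, 0.205).

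**Figure D2:**
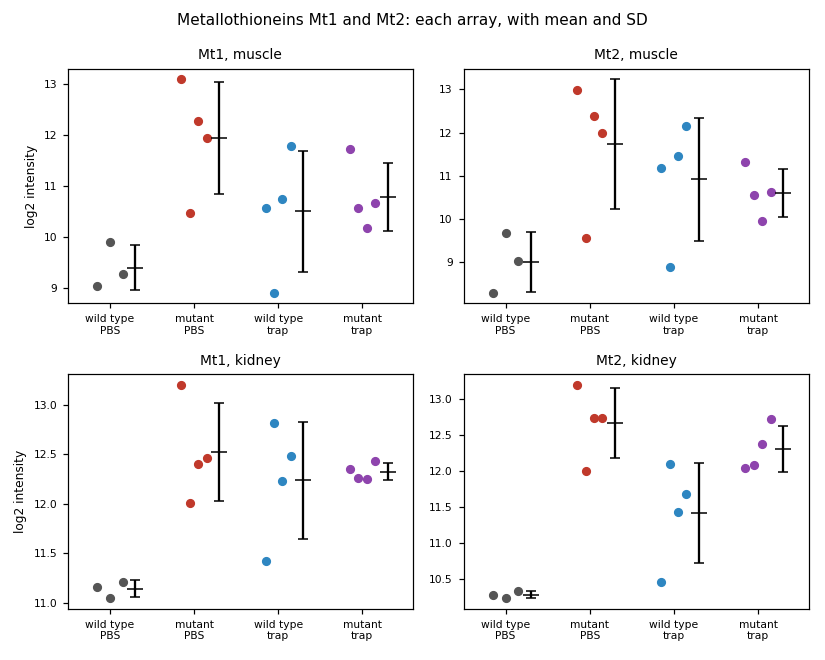
Each point is 1 array, with the mean and SD beside each group, for Mt1 and Mt2 in muscle and kidney (log2 intensity; 3 untreated wild-type and 4 arrays in each other group). Untreated mutants lie above untreated wild type in each panel except for 1 mutant array of Mt2 in muscle (9.56), and under the trap the genotypes overlap in muscle.

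Mt3 gave a pattern of its own in muscle. It was at 6.08, 6.45 and 5.84 in untreated wild type, 5.87, 6.06, 5.58 and 6.02 in untreated mutants and 5.89, 6.13, 5.94 and 5.92 in treated mutants. Treated wild-type animals were at 8.37, 6.00, 8.16 and 7.79, so 3 of 4 stood well above every other muscle array and replicate 2 did not. The trap difference in wild type was not called (1.45 ± 0.38, adjusted p = 0.198). Under the trap the genotype difference was -1.61 ± 0.36 (adjusted p = 0.0313), and it was not called with the actin covariate (-0.89, adjusted p = 0.335), with the replicate block (-1.61, 0.0563), with a trended prior (-1.61, 0.0527) or in a fit of only those groups (-1.61, 0.101). It was also lost in 6 of the 15 fits that left out 1 array, among them those without treated wild-type replicate 1 (-1.35), replicate 3 (-1.42) or replicate 4 (-1.54). The same 3 treated wild-type animals were the higher ones for Mt4 (5.0, 5.40 and 4.41, against 3.64 in replicate 2), which was not called (-0.79 ± 0.26, adjusted p = 0.157).

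Of the 8 iron genes, 3 were called higher (Cp, Slc11a1 and Slc40a1) and 3 lower (Tfrc, Slc11a2 and Fth1) in untreated mutant kidneys, and Hmox1 and Hamp were not called (6 of 8, against 51.6% of all genes). In untreated mutant muscle limma called none of the 8 (2, Tfrc and Fth1, had an unadjusted p under 0.05). The largest rise of any metal gene was that of Cp in kidney, and Tfrc gave the only treatment response of a metal gene that was called in kidney.

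Tfrc in kidney was at 10.86, 10.55 and 10.70 in untreated wild type and at 8.71, 9.28, 9.02 and 8.66 in untreated mutants, which all lay more than a log2 unit lower. It fell by 1.78 on the log2 scale (standard error 0.23, 3.44-fold, adjusted p = 1.11e-05), and its 6 probe sets, 3 of them array control sets, gave -1.96 to -0.77. Treated mutants were at 9.84, 9.90, 10.39 and 10.30, above every untreated mutant and inside the range of treated wild type (10.96, 9.80, 10.56 and 10.21). Within the mutants the trap raised Tfrc by 1.19 ± 0.21 (2.28-fold, adjusted p = 0.00778), the only metal gene called in that comparison (1 of 41, higher, against 2.40% of all genes, 1.07% higher and 1.33% lower), and under the trap the genotypes differed by -0.27 ± 0.21 (95% interval -0.73 to 0.18, adjusted p = 0.303). In wild type the trap difference was -0.32 ± 0.23 (adjusted p = 0.602).

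The interaction, the test of whether the trap acted differently by genotype, was 1.51 ± 0.31 for Tfrc in kidney (95% interval 0.84 to 2.18, adjusted p = 0.0275). It was the only metal gene called (1 of 41, positive, against 1.38% of all genes, 0.664% positive and 0.720% negative). The call was lost with the replicate block (1.48, adjusted p = 0.0628) and in 8 of the 15 fits that left out 1 array, with values from 1.31 to 1.70 over all 15. These 8 were the fits without untreated mutant replicate 1 or 4, untreated wild-type replicate 1, 2 or 3, treated wild-type replicate 4, and treated mutant replicate 3 or 4. The trap difference in mutants was kept without each array in turn (1.09 to 1.31) but not when all its probe sets were averaged (0.59, adjusted p = 0.0582) or with the 18S control as a covariate (1.80, adjusted p = 0.177). The probe sets of Tfrc gave 0.23 to 1.19 for it.

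In muscle Tfrc was near 12 in all groups but the untreated mutants. These were at 9.43, 11.65, 10.95 and 11.87, against 12.10, 11.75 and 12.19 in untreated wild type, and replicate 1 lay far below the rest. The genotype difference was -1.04 ± 0.38 and was not called (adjusted p = 0.0778). Without replicate 1 it was -0.52 (adjusted p = 0.0862) and with the actin covariate -0.53 (0.436), while it was called without untreated mutant replicate 2 (-1.26, 0.0322) or 4 (-1.33, 0.0248) and with array weights (-1.0, 0.0117). Treated mutants were at 12.17, 12.14, 12.22 and 12.42 and did not overlap the untreated ones. That difference, 1.26 ± 0.35 (2.39-fold), was called at an adjusted p of 0.0449, and Tfrc was 1 of 2 metal genes called there (4.88%, both higher, against 6.33% of all genes, 4.18% higher and 2.15% lower). The other was Slc39a1. The Tfrc call rests on little margin: it was lost in 12 of the 15 fits without 1 array, in a fit of only those groups (1.26, adjusted p = 0.162), with a trended prior (1.26, 0.081), with the actin covariate (0.82, 0.270) and with the 18S covariate (1.44, 0.223). Without untreated mutant replicate 1 the difference shrank to 0.74 and was still called (adjusted p = 0.0336). The interaction in muscle was not called (1.00 ± 0.52, adjusted p = 0.382).

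Cp, the copper-bound ferroxidase of plasma, was at 8.16, 8.02 and 8.34 in untreated wild-type kidney and at 12.16, 11.84, 12.11 and 12.05 in untreated mutants. It rose by 3.87 ± 0.16 (14.6-fold, 95% interval 3.52 to 4.22, adjusted p = 5.16e-10), and all of its 8 probe sets were higher (1.22 to 3.87). Under the trap mutants were at 11.49, 11.52, 12.08 and 12.10 and wild type at 8.64, 8.44, 8.92 and 8.85, a genotype difference of 3.08 ± 0.15 (adjusted p = 2.39e-09). In muscle no group difference was called, with 7.77, 7.92 and 8.10 in untreated wild type and 8.07, 7.93, 8.13 and 8.15 in untreated mutants. The acute phase list, which holds Cp, Hamp and Slc39a14, had 7 higher and 1 lower of 17 in untreated mutant kidney. That is 47.1% called, against 51.6% of all genes (24.9% higher and 26.7% lower). Cp is 1 of the 7, Slc39a14 is the 1 lower gene, and Hamp was not called. Mean levels of the list were 5.20 to 5.51 in wild type and 6.31 to 7.27 in mutants.

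Slc11a1 is a divalent metal carrier of phagosomes and is typical of macrophages. In kidney it went from 5.43, 5.52 and 5.66 to 7.41, 7.19, 7.85 and 7.59, all above wild type, a difference of 1.98 ± 0.19 (3.94-fold, adjusted p = 4.74e-07). All 22 macrophage and myeloid genes were called higher in the same comparison (median 3.23, all genes -0.08), with mean levels of 9.01 to 9.65 on untreated mutant arrays against 5.89 to 6.27 on untreated wild-type arrays. Their part in the Slc11a1 result was not tested. In untreated mutant muscle, where 1 of those 22 was higher and 4 were lower, Slc11a1 was not called (6.18, 5.79, 6.03 and 6.38 against 6.12, 6.35 and 6.16).

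The remaining iron genes changed less. Slc40a1, the iron exporter, was at 9.63, 9.46 and 9.84 in untreated wild-type kidney and 10.02, 10.17, 10.16 and 10.09 in untreated mutants, without overlap (0.46 ± 0.11, adjusted p = 0.00227), and under the trap it was again higher in mutants (0.60 ± 0.10, adjusted p = 0.000188). In muscle it spread from 9.25 to 10.27 in untreated mutants, overlapping the wild type (0.54 ± 0.27, adjusted p = 0.200). Slc11a2, the carrier that takes iron out of endosomes, was at 7.20, 7.30 and 7.30 in untreated wild-type kidney and 6.77, 7.12, 7.01 and 6.79 in mutants. It fell by 0.34 (adjusted p = 0.0367), a call that was lost with either RNA covariate and without untreated mutant replicate 1 or 4 or any untreated wild-type array (-0.38 to -0.29). The mean of its 4 probe sets gave a larger fall (-0.62, adjusted p = 2.04e-05), and the sets ran from -0.92 to -0.34, with the brightest the smallest. It was 0.55 lower under the trap (-0.55 ± 0.12, adjusted p = 0.00162).

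Fth1, the ferritin heavy chain that oxidises and stores iron, leaned opposite ways in the tissues. In untreated kidneys it was at 14.29, 14.26 and 14.31 in wild type and 13.75, 14.00, 13.76 and 13.94 in mutants, lower by 0.43 (-0.43 ± 0.08, adjusted p = 0.000468), but -0.18 and not called after quantile normalization (adjusted p = 0.0759). In muscle it went from 13.57, 13.60 and 13.59 to 13.80, 13.72, 13.84 and 13.92, without overlap and without a call (0.23 ± 0.09, adjusted p = 0.0803), though 5 of 10 alternatives called it, with values up to 0.32. The genotype difference in kidney was lower than that in muscle (-0.66 ± 0.10, adjusted p = 9.19e-06).

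Hmox1, which breaks haem down and frees its iron, was at 5.83, 5.68 and 5.52 in untreated wild-type kidney and 5.56, 5.23, 6.17 and 5.19 in mutants and was not called in any comparison. Treated mutants were at 5.90, 6.36, 6.28 and 6.64 (trap difference in mutants 0.76 ± 0.25, adjusted p = 0.134). In muscle Hmox1 lay between 4.53 and 5.31 on all arrays. Hamp, the hormone hepcidin made chiefly by liver, lay between 4.25 and 5.30 in kidney and between 4.70 and 5.15 in muscle, close to the background reference, and was not called.

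**Figure D3:**
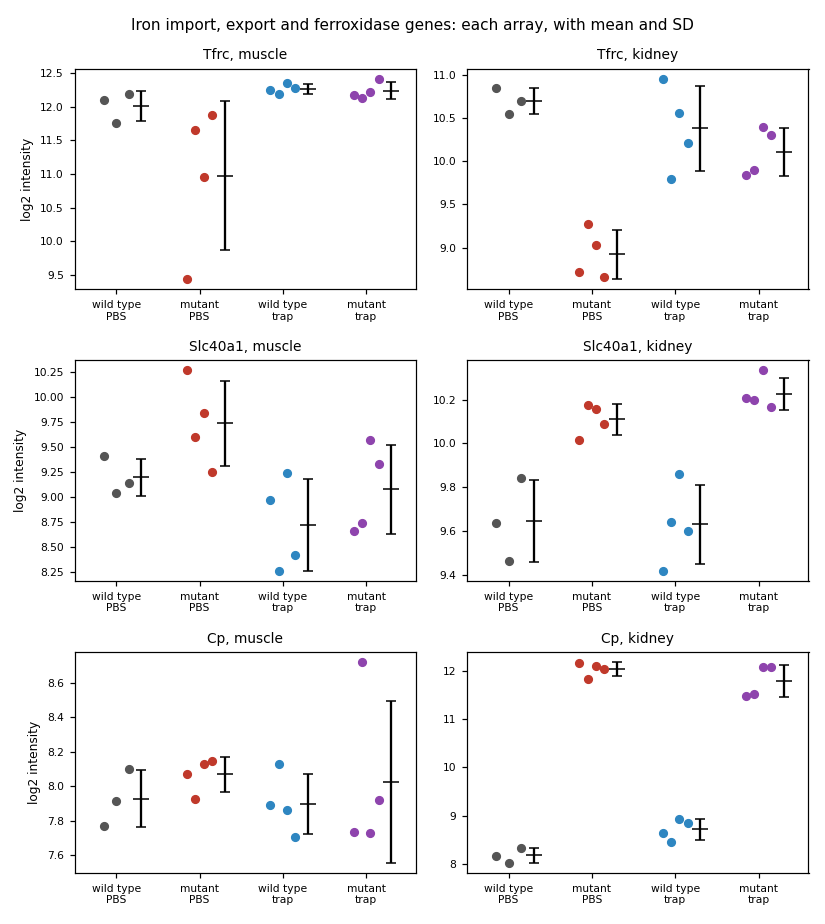
Each point is 1 array, with the mean and SD beside each group, for the importer Tfrc, the exporter Slc40a1 and the ferroxidase Cp in muscle and kidney (log2 intensity; axes differ between panels). Kidney Tfrc is low in untreated mutants (8.66 to 9.28) and higher in treated mutants (9.84 to 10.39), Cp is high in mutant kidneys with and without the trap, and 1 untreated mutant muscle stands far below the others for Tfrc (9.43).

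The 14 zinc importers of the Slc39 family split evenly in untreated mutant kidneys, with 5 called higher (Slc39a6, Slc39a4, Slc39a1, Slc39a10 and Slc39a7) and 5 lower (Slc39a5, Slc39a8, Slc39a11, Slc39a14 and Slc39a9), 10 of 14 against 51.6% of all genes. In muscle only Slc39a1 was called, and it was lower (1 of 14, against 16.0%). The family's median difference was -0.13 in kidney and -0.18 in muscle, against -0.08 and -0.05 for all genes.

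Slc39a6, a ZIP carrier of the plasma membrane, was at 7.19, 6.76 and 7.07 in untreated wild-type kidney and 9.08, 8.53, 8.90 and 8.87 in untreated mutants. It rose by 1.84 ± 0.19 (3.58-fold, adjusted p = 9.95e-07), with 0.42 from its other probe set and 1.13 from their mean. Treated kidneys kept the split, with 8.08, 8.37, 8.88 and 8.75 in mutants and 7.08, 6.83, 7.16 and 7.35 in wild type (1.42 ± 0.17, adjusted p = 9.22e-06). Muscle went the other way under the trap, at 6.81, 6.71, 6.15 and 6.42 in mutants and 7.38, 7.26, 7.38 and 7.48 in wild type. That fall of -0.85 ± 0.20 was called at an adjusted p of 0.0409, but not as a mean of its probe sets (-0.45, 0.0813), median centring (-0.81, 0.0537), the replicate block (-0.85, 0.0517) or the actin covariate (-0.83, 0.239), nor in 8 of 15 fits without 1 array.

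Slc39a5, a zinc carrier of epithelia such as gut and pancreas, was at 7.66, 7.94 and 8.03 in untreated wild-type kidney and 5.25, 6.59, 5.57 and 5.50 in untreated mutants. It fell by 2.15 on the log2 scale (standard error 0.33, 4.43-fold, adjusted p = 5.29e-05). Slc39a8, which carries zinc, manganese and iron, went from 9.19, 9.36 and 9.31 to 7.80, 7.74, 8.03 and 7.80, a difference of -1.44 ± 0.20 (2.72-fold, adjusted p = 1.89e-05). Neither overlapped between the groups, and both were lower under the trap too (Slc39a5 -1.62 ± 0.30, adjusted p = 0.000425; Slc39a8 -1.28 ± 0.18, adjusted p = 3.92e-05). Slc39a14, which takes up zinc and iron not bound to transferrin, was lower by 0.63 (-0.63 ± 0.21, adjusted p = 0.0182) with overlapping arrays (7.77, 8.42 and 8.14 against 7.78, 7.15, 7.39 and 7.60). It was not called without untreated wild-type replicate 2 (-0.48, adjusted p = 0.103) or replicate 3 (-0.62, 0.0515), or without untreated mutant replicate 2 (-0.52, 0.0515). In muscle both Slc39a8 and Slc39a14 were uncalled, with a single untreated mutant, replicate 1, above the others for each (4.73 and 7.93). Every muscle array of Slc39a8 lay under the background reference of 5.0 (3.55 to 4.98), so a fall there could not be seen.

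All 20 proximal tubule genes were called lower in untreated mutant kidneys (median -2.36), with mean levels of 12.3 on every untreated wild-type array, 8.88 to 10.4 in untreated mutants and 10.3 to 10.9 in treated mutants. Treated wild-type kidneys were at 12.2 to 12.3, and under the trap 19 of the 20 were still lower in mutants (median -1.59). The trap in mutants called 2 of the 20 higher (median 0.79). Tfrc was not called between genotypes under the trap. In untreated mutants the list was low alongside Tfrc and the lower zinc carriers, and its part in them was not tested.

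Slc39a1, a zinc importer found in most cells, was called in opposite directions in the tissues. In kidney it went from 9.09, 9.09 and 9.20 to 9.95, 9.74, 9.91 and 9.78 (0.71 ± 0.10, adjusted p = 3.75e-05). In muscle it went from 9.07, 9.24 and 9.23 to 8.49, 8.52, 8.72 and 8.67 (-0.58 ± 0.09, adjusted p = 0.00080). No array overlapped in either, and the difference between tissues was 1.29 ± 0.13 (adjusted p = 5.91e-09). In treated mutant muscle it was at 9.04, 9.17, 9.16 and 9.14, above every untreated mutant (0.53 ± 0.09, adjusted p = 0.003), and 0.23 below treated wild type (-0.23 ± 0.09, adjusted p = 0.240). Both muscle calls of Slc39a1 held in every alternative fit and without each array in turn.

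The other kidney importers moved by less than 2-fold. Slc39a4, known for zinc uptake in the gut, was higher by 0.87 ± 0.34 (adjusted p = 0.0438), with 1 mutant array, replicate 1, at 5.92 and the others at 4.25 to 4.94, and by 0.54 without that array (adjusted p = 0.132). Untreated wild type lay at 4.05 to 4.10, under the background reference of 4.30, so the size of the difference is limited by that floor. The call was also lost in 7 other fits without 1 array, with median centring (0.77, 0.0622), a trended prior (0.87, 0.0592) and the 18S covariate (0.71, 0.0621). Slc39a10 was higher by 0.57 ± 0.19 (adjusted p = 0.0187), but its probe sets disagreed in sign (0.57 and -0.40) and their mean gave 0.08 (adjusted p = 0.718). Without untreated wild-type replicate 2 (0.53) or 3 (0.55), or with the actin covariate (0.50), it was not called. Slc39a11 was lower by 0.89 (-0.89 ± 0.13, adjusted p = 4.18e-05) and Slc39a9 by 0.43 (-0.43 ± 0.10, adjusted p = 0.0019). Slc39a7, which frees zinc from the secretory pathway, was higher by 0.22 ± 0.08 (adjusted p = 0.0409), and by 0.13 after median centring (adjusted p = 0.187), and it lost its call in 7 of 15 fits without 1 array and in 5 of 10 other alternatives. Slc39a2, Slc39a3, Slc39a12 and Slc39a13 were not called.

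Of the 10 carriers of the Slc30 family, 6 were called lower and 1, Slc30a7, higher in untreated mutant kidneys, with a median of -0.40 (7 of 10, against 51.6% of all genes, 26.7% lower), and 3 were lower and none higher in muscle (against 16.0%, 9.04% lower). Slc30a2, which fills vesicles with zinc and is best known from the mammary gland, had the largest fall of any metal gene. In kidney it was at 8.81, 8.94 and 8.88 in untreated wild type and 5.59, 6.80, 4.95 and 5.18 in untreated mutants, a difference of -3.25 ± 0.39 (9.50-fold, adjusted p = 5.80e-06). Treated mutants were at 7.10, 6.29, 5.52 and 6.38 and treated wild type at 8.67, 7.82, 7.81 and 7.76, which left a difference of -1.69 ± 0.36 (adjusted p = 0.00138). The interaction was not called (1.56 ± 0.53, adjusted p = 0.187).

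In muscle Slc30a2 was highest in untreated wild type, at 7.12, 7.25 and 7.58. Untreated mutants were at 6.41, 6.21, 6.19 and 5.47, all lower (-1.25 ± 0.32, 2.37-fold, adjusted p = 0.0157). Treated wild type was at 6.27, 4.57, 5.57 and 5.0, lower again (-1.96 ± 0.32, adjusted p = 0.0329), and Slc30a2 was 1 of only 11 genes of the whole array called for the trap in wild-type muscle (0.0619% of all genes, 0.0337% higher and 0.0281% lower) and the only metal gene. Both comparisons share the 3 untreated wild-type arrays. The genotype call was lost with the actin covariate (-1.09, adjusted p = 0.0899), the 18S covariate (-0.90, 0.168) and without untreated wild-type replicate 3 (-1.11, 0.0666). The trap call was lost with the actin covariate (-2.13, 0.0825) and in a fit of only those groups (-1.96, 0.0617). It was also lost without any 1 of the untreated wild-type arrays (adjusted p = 0.126 to 0.173), treated wild-type replicate 4 (-1.85, 0.133) or treated mutant replicate 4 (-1.96, 0.0574). Genotypes did not differ by a called amount under the trap.

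Slc30a1, the exporter of the plasma membrane, was at 10.12, 10.37 and 10.29 in untreated wild-type kidney and 9.69, 9.78, 9.91 and 9.79 in mutants. It fell by 0.47 (adjusted p = 0.0233), a call lost with the actin covariate (-0.38, adjusted p = 0.111) and without untreated mutant replicate 1 (-0.43, 0.0557) or untreated wild-type replicate 2 (-0.41, 0.0863) or 3 (-0.45, 0.0651). It was not called in muscle. The carriers of the secretory pathway Slc30a5 (-0.48 ± 0.14, adjusted p = 0.0094) and Slc30a6 (-0.47 ± 0.09, 0.000376) were lower in mutant kidneys, as were Slc30a9 (-0.59 ± 0.10, 9.39e-05) and, at a level under the background reference, Slc30a8 (-0.33, 0.0498), whose call was lost in 9 of 15 fits without 1 array and in 4 of 10 other alternatives. Slc30a7, which loads zinc into the Golgi, was higher in kidney (0.70 ± 0.10, adjusted p = 2.04e-05, and 0.47 as a mean of its probe sets) and lower in muscle (-0.43 ± 0.14, adjusted p = 0.0438), and the difference between tissues was 1.14 ± 0.16 (adjusted p = 1.96e-06). The muscle call was lost in 10 of 15 fits without 1 array and in 5 of 10 other alternatives. Slc30a4 fell in muscle (-0.38 ± 0.10, adjusted p = 0.0174), where its values went from 9.51, 9.29 and 9.47 to 9.13, 8.94, 9.06 and 9.05, and was not called in kidney. Without untreated wild-type replicate 1 (-0.34) or 3 (-0.36) the muscle call was lost, as it was with median centring (-0.32, adjusted p = 0.0509), in a fit of only those groups (-0.38, 0.0771) and with the actin covariate (-0.39, 0.0581). Slc30a3 and Slc30a10 were not called in either tissue.

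**Figure D4:**
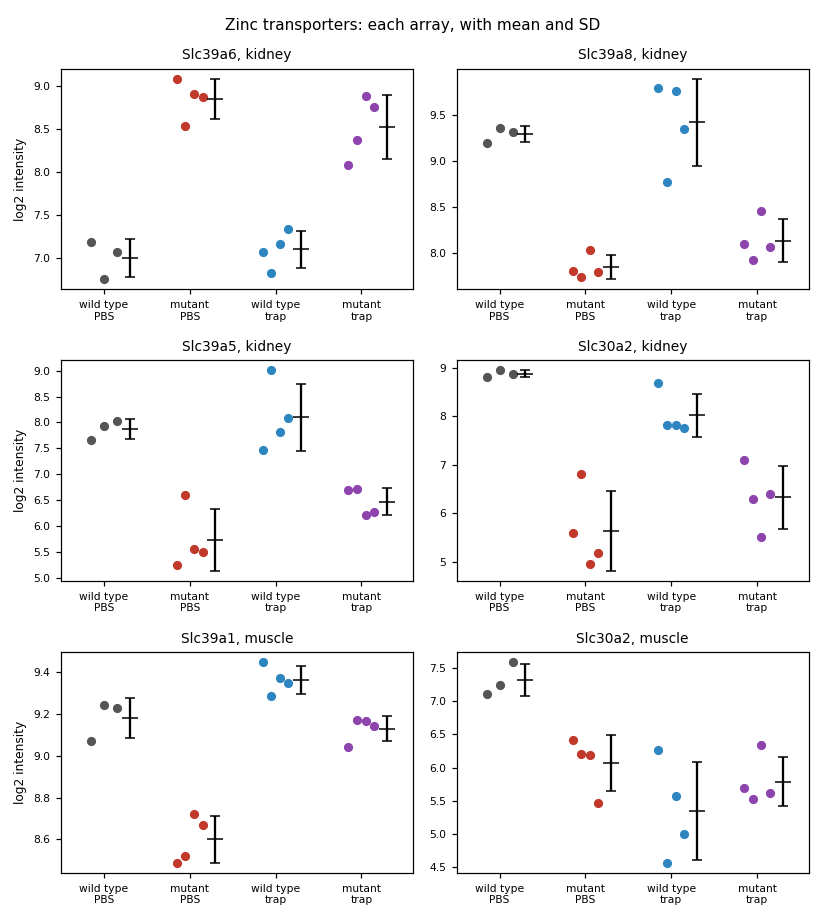
Each point is 1 array, with the mean and SD beside each group, for 4 zinc carriers in kidney and 2 in muscle (log2 intensity; axes differ between panels). In kidney Slc39a6 is higher and Slc39a8, Slc39a5 and Slc30a2 are lower in mutants of either treatment. In muscle Slc39a1 is lowest in untreated mutants (8.49 to 8.72). Its treated mutants (9.04 to 9.17) also lie below treated wild type (9.28 to 9.45), a difference that was not called. Slc30a2 in muscle is highest in untreated wild type (7.12 to 7.58).

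Of the 5 carriers of copper and magnesium, 2 were called higher and 2 lower in untreated mutant kidneys (against 51.6% of all genes, 24.9% higher and 26.7% lower), and 2 were lower in muscle (against 16.0%, 9.04% lower). Slc31a2, a copper carrier of endosomes, was higher in kidney by 0.96 ± 0.13 (adjusted p = 1.46e-05, and 0.60 as a mean of its probe sets), while Slc31a1, the main copper importer of the plasma membrane, was lower by 0.21 (-0.21 ± 0.07, adjusted p = 0.0216) on its brightest probe set and by 1.28 on its other one (mean of both -0.74, adjusted p = 8.07e-06). The brighter set lost its call in 4 of 15 fits without 1 array and with the actin covariate (-0.16, adjusted p = 0.117). The magnesium carrier Slc41a1 was higher in kidney by 0.80 ± 0.10 (adjusted p = 1.02e-05), and 0.50 as a mean of its probe sets.

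Slc41a2 and Slc41a3 carried the muscle changes. Slc41a2 was at 5.61, 5.52 and 5.49 in untreated wild-type muscle and 4.41, 4.82, 4.68 and 4.86 in untreated mutants (-0.84 ± 0.15, adjusted p = 0.00125). All the untreated mutants were under the background reference of 5.0, so no fold is given and the size of the fall is limited by that floor. It was also lower in mutants under the trap, at 5.39, 4.96, 5.27 and 4.99 against 6.03, 5.67, 5.78 and 6.18 (-0.76 ± 0.14, adjusted p = 0.0107; with the actin covariate -0.62, adjusted p = 0.150). No arrays overlapped in either. Slc41a3, the magnesium carrier of mitochondria, went from 9.71, 9.57 and 10.31 to 9.08, 9.25, 8.15 and 8.37 (-1.15 ± 0.24, 2.22-fold, adjusted p = 0.00403; with the 18S covariate -0.97, adjusted p = 0.0536). Its treated mutants were at 9.37, 9.31, 9.25 and 9.75, none below an untreated mutant, and 0.71 ± 0.22 was not called (adjusted p = 0.0687). In kidney its probe sets had opposite signs (-0.33 and 0.49), and the call of the brighter one (adjusted p = 0.0483) was lost in 11 of 15 fits without 1 array, with the mean of its probe sets, a trended prior and the 18S covariate.

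Across the trap comparisons few metal genes were called. In mutants there were 2 in muscle (Tfrc and Slc39a1) and 1 in kidney (Tfrc), all higher, shares close to those of all genes. The trap and genotype comparisons share the untreated mutants. In wild type there was 1 in muscle (Slc30a2, lower) and none in kidney, where limma called 0.877% of all genes (0.326% higher and 0.551% lower). There 11 metal genes had an unadjusted p under 0.05, and limma with array weights called 4 (and 3.26% of all genes). Between genotypes under the trap, 11 metal genes were higher and 11 lower in kidney (53.7%, against 46.4% of all genes, 22.2% higher and 24.2% lower), and all 22 had been called in the same direction without it. Such agreement was not counted over all genes, so it does not set the metal genes apart. The 8 called only without the trap were Tfrc, Fth1, Mt1, Slc39a4, Slc39a14, Slc30a5, Slc30a8 and Slc41a3, and of these only Tfrc had a called interaction. In muscle 3 were lower and none higher (Mt3, Slc39a6 and Slc41a2; 7.32%, against 1.66% of all genes, 0.146% higher and 1.51% lower), and limma called no metal gene for the interaction there (against 0.169% of all genes, 0.152% positive and 0.0169% negative), with 7 at an unadjusted p under 0.05. With array weights 2 were called, and 2.04% of all genes.

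The tissues were compared in 1 fit of all 30 arrays. The genotype difference in untreated animals was more positive in kidney than in muscle for 11 metal genes and more negative for 10 (21 of 41, against 37.2% of all genes, 19.7% more positive and 17.5% more negative). The 6 largest were Cp (3.73 ± 0.26), Slc39a6 (2.38 ± 0.29) and Slc11a1 (2.09 ± 0.23), all more positive in kidney, and Slc39a5 (-2.04 ± 0.35), Slc30a2 (-2.0 ± 0.52) and Slc39a8 (-1.42 ± 0.35), all more negative in kidney (adjusted p = 9.54e-12 to 0.00283). For Slc39a8 every muscle array was under the background reference there, so its tissue difference is limited by that floor. Of the 6 genes called in both tissues, Mt1, Mt2, Slc30a2 and Slc41a3 went the same way and Slc39a1 and Slc30a7 opposite ways.

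The wider metal pathways were described by 5 lists, counted in the same comparisons. In untreated mutant kidneys the list of mitochondrial iron and iron-sulphur cluster assembly had 11 of 14 measured genes lower and none higher (median -0.75, all genes -0.08, of which 26.7% were lower). Nfs1, the cysteine desulphurase that supplies the sulphur, fell by 1.57 on the log2 scale (standard error 0.09), and its partner Lyrm4 by 1.39. The haem list had 11 of 19 lower and 4 higher (78.9%, against 51.6% of all genes, 24.9% higher). Alas2, the erythroid first enzyme of haem synthesis (-1.92 ± 0.50), and Uros (-1.65 ± 0.19) led the falls. The haemoglobin-haptoglobin receptor of macrophages, Cd163 (4.31 ± 0.23), and the haemopexin receptor Lrp1 (2.36 ± 0.20) led the rises. The erythroid list, which holds Alas2, had 3 of 5 measured genes lower (60% called, against 51.6% of all genes). It also holds Slc4a1, which is on the list of distal tubule and collecting duct genes too, so in kidney it is not of red cells alone. The macrophage list above holds Cd163. Their part in these counts was not tested. Copper handling had 9 of 14 lower and 2 higher (78.6%, against 51.6% of all genes). Its 14 genes include Mmgt1, which is also on the zinc and magnesium list. The extracellular copper enzyme Sod3 (-1.80 ± 0.17) and the chaperone Ccs (-1.27 ± 0.14) fell most, and Lox, which crosslinks collagen (3.25 ± 0.28), and the copper pump Atp7a (0.96 ± 0.23) rose. The fibroblast and matrix list rose in the same kidneys, with 11 of 13 genes higher and none lower (84.6%, against 24.9% of all genes higher). Its median was 1.95 and its mean levels were 9.56 to 9.99 against 7.67 to 8.10. Its part in the copper counts was not tested.

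Iron regulation was mixed in kidney, with 4 of 23 higher and 6 lower (43.5%, against 51.6% of all genes). Lcn2, which binds bacterial iron carriers and is a marker of tubule injury, rose by 8.12 ± 0.23 and Steap1, a metalloreductase, by 1.24 ± 0.25, while Exoc6, needed for receptor cycling, fell (-1.33 ± 0.15) along with Aco1, an iron regulatory protein that binds Tfrc mRNA (-0.74 ± 0.15). The zinc and magnesium list had 4 of 15 higher and 6 lower (66.7%, against 51.6% of all genes). The rises were led by the magnesium carrier Nipal1 (3.49 ± 0.31) and by Klf4 (2.57 ± 0.17), a zinc-finger transcription factor and not a metal carrier. The falls were led by Cnnm2 (-1.0 ± 0.10) and Tmem163 (-0.70 ± 0.14).

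In untreated mutant muscle, where 16.0% of all genes were called, 13.3% to 28.6% of each list was, on both sides of that share: iron regulation had 3 higher and 3 lower of 23, haem 3 lower of 19, iron-sulphur clusters 2 and 2 of 14, copper 3 lower of 14, and zinc and magnesium 2 higher of 15. Lcn2 rose by 2.46 ± 0.63, the haemochromatosis protein gene Hfe, whose product binds the transferrin receptor, fell (-0.99 ± 0.17), and Alas2 fell (-1.83 ± 0.32). In mutant muscle under the trap these 3 were called the other way relative to untreated mutants (Lcn2 -2.52 ± 0.58, Hfe 0.85 ± 0.16, Alas2 1.99 ± 0.29), in a comparison that shares the untreated mutants with the genotype comparison. The counts under the trap in mutant muscle were 2 higher and 1 lower for iron regulation, haem and iron-sulphur clusters alike, 1 higher for copper and 2 lower for zinc and magnesium, in a comparison that called 6.33% of all genes. In mutant kidneys, where it called 2.40% of all genes, the trap called 0 of 23 iron regulation genes, 1 haem gene (lower), 1 iron-sulphur gene (higher), 1 copper gene (higher) and 1 higher and 1 lower in the zinc and magnesium list.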

How the data were processed

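Per the labels' protocols, QIAZOL-extracted RNA of snap-frozen muscle and kidney was run on Affymetrix mouse gene chips. The deposited value of a probe set is a log2 intensity that the authors had already normalized. That the log base is 2 was judged from the range of values, and how they were normalized is not given in the sources used. Of 35088 probe sets, 31563 with 1 gene symbol in the platform annotation, which can be old, were used, 825 had several symbols and 2700 none listed. A gene was read from whichever of its probe sets was brightest on average in the tissue, with no filter on low values. Each tissue was fitted with limma 3.58.1 in R 4.3.3, with 4 group means and a shared, moderated spread, and Benjamini-Hochberg adjustment over 17782 genes. Tissues were compared in 1 fit of 30 arrays that took the animal as a random block (correlation 0.0749). The labels describe separate animals and give no batch. Precision is limited by how many arrays there are.

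The members, gene lists and named genes were chosen with earlier results of these data known. Values per array are given for the members with the largest called changes whose arrays do not overlap (up to 8 in each tissue for genotype under PBS, up to 4 called in each other comparison) and always for Mt1, Mt2 and the iron and main zinc carriers; up to 6 tissue differences and up to 2 members per direction of each list are named, and other members with values were chosen after their values were seen. Promoter windows reach from 250 bases before to 50 after a RefSeq transcript start. The alternatives were other probe set, filter, scaling, array weight, prior, sample and replicate block choices and leaving out each array. The actin and 18S covariates were added after the data were seen. Same-numbered arrays of different groups correlated at 0.01 on average in muscle (-0.24 to 0.30) and 0.04 in kidney (-0.12 to 0.34), so the numbers were not taken as pairs. The steps were tested on simulated data. Figures were drawn with matplotlib 3.10.9.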

Additional observations from a re-analysis of the deposited data

Results flagged for a closer look

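Of 126 groups of 4 arrays in which the named genes were tested for an array far from the others, 5 held one, and chance alone gives about 5% of such groups. In treated wild-type kidney, replicate 1 was at 8.67 for Slc30a2 and the other 3 were at 7.76 to 7.82, while the untreated wild-type arrays were at 8.81 to 8.94. In untreated mutant muscle, replicate 1 stood apart for both Slc39a14 (7.93, others 6.33 to 6.57) and Slc39a8 (4.73, others 3.55 to 3.68, all under the background reference). It was also the lowest array for Tfrc. Hamp, near background in muscle, was at 5.15 in treated mutant replicate 1 (others 4.70 to 4.74) and at 4.88 in treated wild-type replicate 3 (others 4.71 to 4.73).

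The effect of the trap on kidney Tfrc was called different between genotypes, with an interaction of 1.51 (95% interval 0.84 to 2.18, limma adjusted p = 0.0275). This call was lost with the replicate block and in 8 of the 15 fits that left out 1 array. The genotype difference in untreated animals differed between kidney and muscle for Cp (3.73), Slc39a6 (2.38), Slc11a1 (2.09), Slc39a5 (-2.04), Slc30a2 (-2.0) and Slc39a8 (-1.42), with adjusted p-values of 0.00283 or less. Slc39a8 was under the background reference on every muscle array.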

How the results depend on the processing

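Of the 30 kidney genotype calls without the trap, 19 were kept in every alternative run and without each of the 15 arrays in turn, and of the 8 in muscle 2 were (Slc39a1 and Slc41a2). The number of metal genes called moved by over 1.5 times in these cases. For the trap in mutant muscle, 2 became 6 with array weights, 4 among genes above the median level and 1 with a trended prior, in a fit of only those groups, and with either RNA covariate. For genotype in untreated muscle, 8 became 5 with the actin and 3 with the 18S covariate. For the trap in wild-type muscle, 1 became 0 among genes above the median level, in a fit of only those groups and with the actin covariate. For genotype in treated muscle, 3 became 1 above the median level, 1 with the replicate block and 0 with the actin covariate. Array weights called 2 instead of 0 for the muscle interaction, 4 instead of 0 for the trap in wild-type kidney and 4 instead of 1 for the kidney interaction, and the replicate block called 0 for the last. The trap in mutant kidney gave 0 instead of 1 with the mean of all probe sets and with the 18S covariate.

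Leaving out 1 array gave 4 to 10 metal genes for genotype in untreated muscle (4 without untreated wild-type replicate 3), 1 to 5 for the trap in mutant muscle, 0 to 3 for the trap in wild-type muscle, 1 to 4 for genotype in treated muscle and 0 to 1 for the muscle interaction. In kidney it gave 21 to 29 and 18 to 22 for genotype without and with the trap, 1 to 2 and 0 to 3 for the trap in mutants and wild type and 0 to 4 for the interaction, and 15 to 22 for the tissue difference.

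Values that changed sign were all small and uncalled, except Slc41a3 in untreated kidneys (0.079 with the mean of its probe sets). In untreated muscle they were Slc11a2 (0.048, mean of probe sets), Slc39a8 (0.026 with quantile normalization and 0.033 with median centring, -0.30 to 0.090 without 1 array), Hamp (-0.042, array weights), Hmox1 (-0.18 with the 18S covariate, -0.057 to 0.20 without 1 array), Slc30a1 (-0.019, 18S covariate) and Slc39a14 (-0.080 to 0.45 without 1 array, the former without untreated mutant replicate 1). Kidney Hamp ranged from -0.076 to 0.27 without 1 array. The replicate block ended the calls of kidney Slc30a8 (-0.34, adjusted p = 0.0549) and Slc39a7 (0.23, 0.0516) besides those named in the text. Among all genes, the trap in mutant kidney called 427 genes but 1 with the 18S covariate, the trap in wild-type kidney 156 but 2 with it, and the trap in mutant muscle 1125 but 127 with it, 236 with the actin covariate, 322 in a fit of only those groups and 1881 with array weights. The causes were not tested.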
